A study of Mus musculus with 6 samples.

Results

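Ensembl-only transcript probes are the probes of this mouse array whose transcript name is an Ensembl identifier, and kidney signal at 2 and at 20 months was compared for them. They were chosen by name alone, as every non-control probe whose name starts with ENSMUST. This gave 3360 of 55681 probes (6.03%), which stand for 3205 transcripts. Male mice of the inbred C57BL/6 strain gave the kidney RNA, with 3 arrays for animals 2 months old (young) and 3 for animals 20 months old (aged), in 1 colour and with no treatment named. The 3 RNA preparations per age are described as independent, but whether they came from different mice is not stated, so p-values reflect only how far these preparations differ, in part perhaps technically. The sources used here pair none of the 3360 probes with a gene name, a genome position or a probe sequence, so members are described by rank and by the number in their Ensembl identifier, and only 4 identifiers are printed.

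Reference catalogues differ in how they name transcripts. Gene segments of antibodies and T cell receptors are joined by DNA rearrangement only in lymphocytes, and each segment has a catalogue entry of its own. Antibodies are secreted in bulk by plasma cells, which arise from B cells, and a kidney normally holds few of these cells among its tubules. The RefSeq table of build GRCm38.p6 lists 686 such antigen receptor genes, and 0 of them carry a RefSeq transcript accession there. Which members are such segments is not stated in the sources used here.

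On the young arrays 67.0%, 62.6% and 46.1% of the members were well above background (the scanner software's own call), and on the aged arrays 56.6%, 48.4% and 37.9%. Over all probes the shares were 72.9%, 69% and 55.3% on young replicates 1, 2 and 3 and 62.9%, 55.7% and 46.3% on aged replicates 1, 2 and 3. The lower aged share was thus not particular to the members. Averaged over 3 arrays, 58.6% ± 11.1 (SD) of the members were above background in young kidney and 47.6% ± 9.34 in aged kidney. The ranges overlapped, and for the difference of -11.0 points an exact permutation test (two-sided) gave p = 0.3; no p below 0.1 can arise from 3 against 3 arrays. No probe was saturated. All 10 genes of a kidney list (among them Umod, Aqp2 and Nphs1, which mark the thick ascending limb, the collecting duct and podocytes) were above background on all 6 arrays, and 0 of them passed the test. All 6 arrays shared 1 slide, with the young in its row 1 and the aged in its row 2: age and row cannot be told apart. With 3 arrays per age, precision is limited throughout.

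Many Ensembl-only probes rose in aged kidney and few fell, and the rises were large. Values are log2 signal relative to the array's 75th percentile, changes are aged minus young, and only probes that 1 age or both showed well above background on its 3 arrays were tested. Of the 3360 members 1598 were tested and 1762 were not. Of the 1598, 1191 were above background on all 6 arrays, 341 on all young arrays only and 66 on all aged arrays only. A probe of the last 2 kinds passed through the age in which it was bright, so counts are also given over the 1191. With limma and an adjusted p (Benjamini-Hochberg, over all 30821 probes tested) under 0.05, 168 members passed, against a background of 2.16% over all tested probes. Of these 158 were higher in aged kidney (background 1.49%) and 10 lower (background 0.668%). At least 2-fold, 154 were higher (background 1.20%) and 4 lower (background 0.328%).

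Over the 1191 members above background on all 6 arrays, 105 passed (background over such probes 1.84%), 99 of them higher (8.31%; background 1.39%) and 6 lower (0.504%; background 0.453%). At least 2-fold, 97 were higher (background 1.05%) and 2 lower (background 0.166%). The share of falls was thus near the background. Members were 4.70% of the probes above background on all 6 arrays and 28.1% of the 352 of these that were higher. The young and aged arrays did not overlap for 315 of the 1191 members (26.4%, background 20.2%). Of these 315, 77 were among 78 members of a range of identifiers described below, and 238 among the other 1113. The ages also did not overlap for each of the 168 tested members that passed, which a pass with 3 arrays per age all but requires. The median change was -0.05 over the tested members and -0.05 over all tested probes. Without young replicate 3 the number of higher members was 95, all of them at least 2-fold. More probes, 37955, were then tested, and 191 of them (0.503%) passed. Without the other arrays in turn the number of higher members was 135 to 178, and 1.08% to 6.64% of all tested probes passed. Without adjustment, 396 tested members (24.8%) had a p under 0.05 (background 15.7%).

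Other kinds of probe name had smaller shares of rises on all 6 arrays. Of the 17420 probes with RefSeq accessions 1.17% were higher, of the 3941 genome region probes 0.584%, and of the 674 AK cDNA clone probes 1.48%. The differences between these shares were not tested. Among the 50 largest rises of the whole array that were above background on all 6 arrays and passed, 41 were members, and the second in that order was not.

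The rises were gathered in a narrow range of identifiers. Grouped by number in steps of 100, the tested members fell into 855 groups, of which 5 held at least 10 tested members. In 3 of these 5, which follow each other from 103300 to 103599, most of the tested members were higher, and in the other 2 no member passed. This range was chosen after the values were seen, so its counts are descriptions. It holds 208 probes of 194 transcripts, 137 of them tested. Of the 137, 118 were higher and 0 lower. Without young replicate 3, where 0.503% of all tested probes passed, it was 72 higher. Over the 78 that were above background on all 6 arrays, 70 were higher (89.7%; background 1.39%), with changes from 1.01 to 5.90 and a median of 3.61. These members were above background in young kidney too, so their folds do not rest on unmeasured young values. Of the 19 tested and not called, 15 had a change above 0, 16 had an unadjusted p under 0.05, and the range was -0.81 to 4.13.

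For numbers 103300 to 103399, 31 of 35 members on all 6 arrays were higher, and the median signal was -3.47, -3.18 and -3.11 on young replicates 1, 2 and 3 and 1.16, 0.55 and 0.12 on aged replicates 1, 2 and 3. From 103400 to 103499, 17 of 19 were higher, and the medians were -3.93, -3.72 and -3.67 at 2 months and 0.30, -0.01 and -0.58 at 20 months. From 103500 to 103599, 22 of 24 were higher, and the medians were -4.51, -3.27 and -3.37 at 2 months and 0.52, -0.10 and -0.30 at 20 months. In each step every aged median lay above every young median, but the steps were chosen because most of their tested members were higher. Outside the range no step held more than 4 rises. There were 4 of 6 tested from 103700 to 103799, and 4 of 5 tested in the step that starts at 163500. These are counts of probes, and in each of these steps some of the rises were probes of the same transcript.

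Within an age the 78 members did not lie at the same level on every array. Aged replicate 1 was the highest aged array for 52 of them and aged replicate 3 the lowest for 48. Young replicate 1 was the lowest young array for 61. The median SD among arrays of an age was 0.45 in young and 0.48 in aged samples for these 78, and 0.13 and 0.20 for the 1113 other members on all 6 arrays. The 75th percentile of the processed signal was 4092, 3780 and 2412 on aged replicates 1, 2 and 3 and 3953, 3654 and 2591 on young replicates 1, 2 and 3, so the order of the aged arrays was also that of their brightness, and among the young arrays the order was the opposite. The part of brightness in that order was not tested. Between arrays with the same replicate number, the median difference over the 78 was 4.36, 3.19 and 2.76 for numbers 1, 2 and 3, with 78, 77 and 78 of 78 members higher in the aged sample. The same differences over the 1113 other members were -0.06, -0.06 and 0.03. As the range was chosen for its rises, these differences are descriptions.

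Of the 208 probes of the range 145, 151 and 89 were above background on young replicates 1, 2 and 3 and 178, 160 and 134 on aged replicates 1, 2 and 3. This is a description, since the range was chosen for its higher aged signal, and the ages overlapped.

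The largest rise measured on all 6 arrays was that of transcript ENSMUST00000103399. Its signal was -3.22, -3.09 and -3.34 on young replicates 1, 2 and 3 and 2.80, 3.13 and 2.12 on aged replicates 1, 2 and 3. The ages were far apart, with a change of 5.90 ± 0.25 (SE, n = 3 arrays per age; 59.7-fold; limma adjusted p = 9.99e-05). Under the alternatives tried its change was 5.56 to 6.18 and its adjusted p at most 0.00835. The 5 members of other transcripts most like it over the 6 arrays, among 1184 compared, had Pearson correlations of 0.995 to 0.999, and 4 of the 5 lay in the same range of numbers. All 6 points share the contrast between the ages, which sets these correlations.

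The next rise on all 6 arrays, in the same range, was 5.22 ± 0.14 (adjusted p = 1.23e-05), with signals of -2.67, -2.59 and -2.51 at 2 months and 2.47, 2.53 and 2.88 at 20 months. Replicates of this probe were close together and the ages were apart by many times their spread. The fourth, outside the range, changed by 5.21 ± 0.14 with signals of -3.10, -2.74 and -2.88 at 2 months and 2.18, 2.26 and 2.47 at 20 months. The sixth, also outside it, changed by 5.12 ± 0.16 with signals of -4.08, -3.91 and -3.59 at 2 months and 1.09, 1.28 and 1.41 at 20 months. These 3 probes kept their calls under each alternative tried. The 12th was less even: it changed by 4.84 ± 0.88 (adjusted p = 0.0424), with signals of 1.44, 2.09 and -1.69 on aged replicates 1, 2 and 3 against -4.35 to -4.08 on the young arrays, and it lost its call in 8 of 18 alternatives (adjusted p up to 0.281), 5 of them with an array left out.

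Some of the largest changes rest on young signals at or near background. The largest of all, in the range, was 8.54 ± 0.57 (adjusted p = 0.000737), with signals of -8.63, -6.20 and -7.15 on the young arrays, 1 of which was above background, and 1.62, 1.29 and 0.73 on the aged arrays. The aged arrays were thus well measured and the young ones hardly, so the size of this fold is loosely set; the log2 change was 5.98 to 9.10 under the alternatives. Outside the range, transcript ENSMUST00000050758 had signals of -6.94, -7.31 and -7.18 on the young arrays, none above background, and 0.37, 0.06 and 0.42 on the aged arrays. At 20 months it was higher by an approximate lower bound of 93.9-fold (limma adjusted p = 5.58e-06 on the measured values). The bound was taken per array against the higher of the probe's own signal and the dimmest probe well above background. A probe that is not called can be brighter than that dimmest probe, so the bound is not strict. In all, 8 higher members were above background on 0 of 3 young arrays, with such approximate bounds from 5.70-fold to 93.9-fold. Of the 70 higher members of the range that were above background on all 6 arrays, 20 had a log2 change of at least 4, 34 of 3 to 4 and 16 of 2 to 3.

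Outside the range 40 members were higher, 29 of them among the 1113 that were above background on all 6 arrays (2.61%; background 1.39%). Without young replicate 3, where 0.503% of all tested probes passed, the 40 became 23. Of the 40, 21 had identifiers numbered 160000 or more, with changes from 0.85 to 5.12, a median of 1.76 and 12 of them under a log2 change of 2. Over all 95 members of this number class on all 6 arrays the median signals were -0.89, -0.92 and -0.89 at 2 months and -0.51, -0.73 and -0.98 at 20 months, so the class as a whole overlapped between the ages and 18 of the 95 rose. Of the remaining rises, 15 were scattered through other numbers (0.79 to 7.43). Among the 1013 other members above background on all 6 arrays, 7 were higher (0.691%; background 1.39%) and 6 lower.

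Several transcripts were measured by more than 1 probe, which gives a check within the same RNA. Of 141 such transcripts 61 had 2 or more tested probes. For 46 of the 61 no probe passed, for 8 every tested probe was higher, for 6 some but not all were, and for 1 some were lower. No transcript had calls in opposite directions. Over the 14 transcripts with a rise, the gap between the highest and lowest change of a transcript had a median of 0.36. The largest gap was 6.01: a transcript in the range had a change of 7.34 at 1 probe and of 1.32 at another, which did not pass. In other transcripts with 1 of 2 probes past the threshold the changes were 4.20 and 1.26, and 1.11 and -0.05.

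The 10 falls were small, single and scattered. Transcript ENSMUST00000070425 had signals of -3.74, -3.91 and -4.02 at 2 months and -4.84, -5.28 and -5.91 at 20 months, 1 of which was above background. It fell by 1.45 ± 0.26 on the log2 scale (n = 3 arrays per age, limma adjusted p = 0.0398), and the change was -0.92 with normexp background correction. Transcript ENSMUST00000045586 had signals of -3.29, -3.56 and -3.53 at 2 months and -4.38, -4.78 and -4.77 at 20 months, where it was above background on 2 of 3 arrays. It fell by 1.18 ± 0.16 (adjusted p = 0.0115), and another probe of the same transcript, with a change of -0.39, did not pass. The change of -1.18 was -0.69 with normexp and -0.78 with the transcript's probes averaged. The fourth fall by size had signals of 1.58, 1.52 and 1.57 at 2 months and 0.26, 0.64 and 0.74 at 20 months, a fall by 1.01 ± 0.15 (adjusted p = 0.0188). The other falls were by 0.62 to 1.03. All 10 lost their calls in at least 4 alternatives. Without young replicates 1, 2 and 3 the number of lower members was 0, 1 and 0, and without aged replicates 1, 2 and 3 it was 89, 0 and 5. It was 5 with the replicate number as a block. The share of all tested probes that passed, in either direction, moved too, from 2.16% with all 6 arrays. This share was 1.08%, 1.13% and 0.503% without young replicates 1, 2 and 3. Without aged replicates 1, 2 and 3 the share was 6.64%, 1.16% and 1.85%, and with the block 1.51%.

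Genes of B cells and plasma cells with known names were read from RefSeq-named probes for comparison. Of 34 listed genes 24 were tested, 5 were higher (background 1.49%) and 0 lower (background 0.668%). Among the 24, 15 changes were above 0 and 9 below, and the median was 0.10 against -0.05 over all tested probes. Jchain, which joins secreted antibody units, had signals of -1.51, -1.07 and -0.86 at 2 months and 3.07, 2.94 and 2.92 at 20 months, a change of 4.12 ± 0.18 (n = 3 arrays per age, limma adjusted p = 0.000106). Pou2af1, a coactivator of antibody genes, changed by 2.70 ± 0.16 (adjusted p = 0.000481), Mzb1, which helps plasma cells fold and secrete antibody, by 1.85 ± 0.12 and Irf4, a transcription factor of plasma cells, by 1.23 ± 0.13. The fifth was Fcrla, an Fc receptor-like protein of B cells (1.38 ± 0.18). The change of Jchain lay above the median of the range (3.61), and those of the other 4 lay below it.

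Other genes of that list did not pass. Ms4a1, the surface protein CD20, had a change of 1.35 ± 0.29 (limma adjusted p = 0.0741). Cd79b, a signalling chain of the B cell receptor, changed by 0.87 ± 0.21 (adjusted p = 0.11). For both the ages did not overlap, as for 20.9% of all tested probes. Xbp1, a secretion factor also active in many other cells, had a change of 0.18 ± 0.17 and Pigr, the epithelial receptor that carries antibody across a cell, of 0.08 ± 0.13. Of the 9 genes below 0, against 15 above, Tnfrsf13b changed by -0.58, Cr2 by -0.36, and Pax5, Derl3 and Cd22 by -0.33 each. Vpreb1 changed by -0.21, Vpreb3 by -0.15, Fcer2a by -0.09 and Prdm1 by -0.03. Rag1 and Rag2, which assemble antigen receptor genes, were above background on 0 arrays. The summed signal of the whole list, relative to the array's 75th percentile on the linear scale, was 48.6 to 51.5 at 2 months and 59.6 to 62.4 on the aged arrays. Jchain alone stood at 0.351 to 0.55 at 2 months and at 7.55 to 8.39 at 20 months, and without it the sum was 48.0 to 51.2 at 2 months and 51.2 to 54.8 at 20 months. Pigr (log2 signals of 3.46 to 3.81) and Xbp1 (3.04 to 3.56) were among the brightest genes of the list. The sum is therefore not a level of B cell RNA alone. In a T cell list 2 of 14 tested genes were higher (background 1.49%), Cd2 (1.16 ± 0.17) and Cd5 (0.71 ± 0.11), with a median of 0.78. The summed signal of that list was 2.27 to 2.53 at 2 months and 3.11 to 4.10 on the aged arrays. The 5 B and plasma cell genes and 2 T cell genes that passed were higher in the same samples as the Ensembl-only rises, and their part in those rises was not tested. In whole-kidney RNA, more cells of a type and more RNA per cell cannot be told apart.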

How the data were processed

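Per the labels, Trizol RNA was made into cDNA and given Cy3 in a Klenow reaction on random primers, so the strand is not resolved. Per the file headers, arrays of design 028005 (grid build mm9) were read with Agilent Feature Extraction 11.5.1.1, whose processed signal intensity is not scaled between arrays. The authors' deposited log2 table equals log2 processed signal minus a constant per array within 0.001 for 99.8% of probes on each array. The constants (11.23 to 11.99) lie next to the arrays' 75th percentiles (11.24 to 12.0).

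From the intensities, control and outlier-flagged spots were left out, log2 spots of a probe averaged, and each array's 75th percentile subtracted. Limma 3.58.1 in R 4.3.3 was fitted to all 30821 tested probes (lmFit, eBayes, two-sided, no covariate). Looked at singly were the 12 largest rises (also on all 6 arrays) and all falls with non-overlapping ages. Only some of them are described, by rank except 4 identifiers. Classes of immunoglobulin and T cell receptor members had been intended, as had naming by class, and were not made, because members have no gene names here. RefSeq symbols (GRCm38.p6) named the listed genes, each by its probe of highest mean. Members and lists were chosen with earlier results of these data known, and the range of numbers after the values were seen. The procedure was tested on simulated data.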

Additional observations from a re-analysis of the deposited data

How the results depend on the processing

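Each of the 168 members that passed kept its direction wherever it was tested under the alternatives; with the probes of a transcript averaged, 163 were tested, through their transcript, and 163 kept it. Calls at the threshold moved more. With no filter on dim probes 59 members passed, 48 in the range 103300 to 103599 and 11 outside it. All were higher and at least 2-fold, 0 were lower, and the median change of tested members was 0.13. Of the 55681 probes then tested 109 (0.196%) passed, and the median change over all of them was 0.05. Fitted and adjusted anew over only the 25361 probes above background on all 6 arrays, fewer members were tested and 103 passed at least 2-fold, 100 of them higher. In the range 73 passed and were higher. The counts of 97 and 70 given earlier for such members are from the main fit. Over all probes of the new fit 2.98% passed. The lower count was 26 with array weights (10 of them at least 2-fold), where 3.55% of all tested probes passed. It was 5 with the replicate block, where 1.51% passed. At least 2-fold it was 2 with quantile normalisation, 9 with median centring, 1 with normexp on the median signal (the files hold no mean signal, so this was chosen after the data were seen) and 15 with an unadjusted p. The cause of these moves was not tested. Quantile normalisation, median centring, the authors' table, normexp, outlier spots kept, trend and robust, array weights, the replicate block and probes averaged per transcript left the higher count within 1.5 times of 158.

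Leaving out each array in turn gave 95 to 259 members past the threshold, 95 to 178 higher and 0 to 89 lower. Over all tested probes 0.503% to 6.64% then passed. At least 2-fold the counts of members were 95 to 198, 95 to 177 higher and 0 to 36 lower. In the range 72 to 128 were higher, outside it 23 to 50. The median change was -0.12 to -0.03 and the difference in the share above background -17.2 to -6.11 points. Of the 22 rises and 10 falls looked at singly, 18 kept their calls throughout, and none of these was a fall.

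Same-numbered young and aged samples share only a number: their deviations correlated at 0.11, -0.13 and 0.20 over all tested probes, and 3 of 6 samples correlated best with their own number. With the replicate block 150 members passed, 143 of them among the 168. Dim probes limit the size of folds, and 963 members were above background on no array.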

Other observations

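Among the 1598 tested members 667 changes were above 0 and 931 below. Over all 30821 tested probes 12493 were above 0 and 18328 below, so most changes lay below 0 there too. The 1762 members that were not tested were more often above background on young than on aged arrays. Of these 963 were above background on 0 arrays, 636 on more young than aged arrays, 73 on more aged than young arrays and 90 on equal numbers of each. In the range 103300 to 103599, 71 probes were not tested, of which 22 were above background on more aged than young arrays, 19 on more young than aged arrays, 11 on equal numbers and 19 on none. The young arrays had the higher share of all probes above background in each replicate number. For numbers 1, 2 and 3 it was 72.9%, 69% and 55.3% in young against 62.9%, 55.7% and 46.3% in aged kidney. The part of this difference in these counts was not tested.

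Array-to-array correlation of log2 signal across the tested members, which are not independent replicates, was 0.980 to 0.991 within an age and 0.872 to 0.920 between ages. Across all tested probes it was 0.986 to 0.994 within and 0.971 to 0.982 between ages.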
